A study of Mus musculus with 3 samples.

Results

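The 10 genes described here belong to the transcription burst at the two-cell stage of the mouse embryo, and were measured in four-cell embryos, after the stage at which they are best known. They are Zscan4c, Zscan4d, Tcstv1, Tcstv3, Zfp352, Usp17la, Sp110, Arg2, Eif1a and Tdpoz4, taken by the array's gene name or by a synonym or transcript accession of the RefSeq gene table. Of these 10 genes among 27670 names on the array, 8 had a probe, and these 8 genes had 15 probes of 41174. Zscan4d and Tdpoz4 had no probe under their names, synonyms or accessions, so they have no value of their own.

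Pools of mouse four-cell embryos were compared. The HP pools came from oocytes held at 20 MPa of hydrostatic pressure for 60 min at 37 °C, and the control pools from oocytes kept in the same way without pressure. Both were fertilised by injection of sperm per the sample labels, while the series title says in vitro. The labels give no strain or age. Each of 3 arrays held 1 HP pool in Cy5 (44, 30 and 37 embryos in replicates 1, 2 and 3) and 1 control pool in Cy3 (36, 33 and 24 embryos), so dye and pressure cannot be told apart. In a pool, fewer embryos that express a gene and less RNA per embryo cannot be told apart either.

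The mouse genome is first transcribed on a large scale at the two-cell stage. Many genes of this wave belong to multicopy families, and several are switched on together with an endogenous retrovirus of the MERVL family, then silenced again by later cleavage stages. Zscan4 genes encode zinc finger proteins with a SCAN domain that bind DNA and are linked to telomere maintenance. Tcstv genes encode small proteins of the same stage. Four-cell embryos are therefore past the peak of this wave.

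Several of the probes that carried the results are shown first, as 60-base sequences of the array design written 5′ to 3′. The 2 Zscan4c probes, which the array calls Gm397, lie on chromosome 7 at 9713271 to 9713330 and at 9711998 to 9712057. All array positions here are mm7 coordinates of the design, and whether a probe lies in an exon or a UTR was not analysed here. The Tcstv3 probe that gave signal is placed on an unassigned contig, the Usp17la probe (Dub1 on the array) on chromosome 7 at 100918944 to 100919002, and the brighter Zfp352 probe on chromosome 4 at 89617872 to 89617931. The Sp110 probe and the tested Eif1a probes also gave signal in every pool but are not printed in full. The tested probes of Zscan4c, Tcstv3, Usp17la and Zfp352 were the following.
Zscan4c A_52_P302671: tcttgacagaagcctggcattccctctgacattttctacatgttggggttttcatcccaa
Tcstv3 A_51_P143200: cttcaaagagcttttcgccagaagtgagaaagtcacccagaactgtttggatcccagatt
Usp17la A_51_P302273: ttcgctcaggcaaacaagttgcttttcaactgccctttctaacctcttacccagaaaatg
Zfp352 A_51_P136390: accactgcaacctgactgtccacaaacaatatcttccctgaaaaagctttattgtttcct
The other Zscan4c probe stayed at background in every pool.
Zscan4c A_52_P363843: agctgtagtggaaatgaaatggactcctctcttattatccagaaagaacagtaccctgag

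Few array probes overlapped a member probe in sequence. With at least 20 bases of overlap and at most 3 mismatches, the Tcstv1 probes A_51_P481768 and A_52_P66425 shared 40 bases with no mismatch, so they are not independent readings. The Tcstv1 probe A_52_P66425 and the Tcstv3 probe A_52_P165856 overlapped by 25 bases with a single difference, in capitals here (A14T, counted from 1 at the 5′ end of A_52_P66425).
Tcstv1 A_52_P66425: gtcttgccagcccAgagtacaaggt
Tcstv3 A_52_P165856: gtcttgccagcccTgagtacaaggt
Transcripts of these near-identical copies may bind each other's probes. The Eif1a probe A_52_P618852 was designed from a two-cell cDNA and is placed on chromosome 12, away from the other Eif1a probes. It shared 29 bases with the probe of LOC544881, an Eif1a-like sequence, with 2 differences (T10A and C27T, counted from the 5′ end of the Eif1a probe). Their overlapping bases were these.
Eif1a A_52_P618852: tgatattggTgatgaagatgaagacaCtg
LOC544881 A_52_P337821: tgatattggAgatgaagatgaagacaTtg

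Of the 43379 non-control spots on an array, the scanner software called 17.5% to 19.9% well above background for HP and 18.5% to 23.2% for control, and none was saturated. Probes with this call for HP, or for control, on 2 or more of the 3 arrays were tested, which left 8581. HP replicates 2 and 3 resembled each other the most of the 15 pairs of pools. The SD of the difference in log2 signal over tested probes was 0.23 for this pair and 0.455 to 0.63 for the rest. Over these probes the log2 ratio of replicate 2 had a correlation of 0.652 with that of replicate 3, and of 0.225 with that of replicate 1 (0.216 for replicates 1 and 3). Each tested member probe below is therefore also given with replicates 2 and 3 counted as 1. Embryo and oocyte markers had a tested probe for 8 of 14 genes. Of their 10 tested probes 7 were higher and 3 lower in HP, with a median of 0.07. Dppa3 was at 0.25, Tle6 at 0.28, Tead4 at −0.05, the Dppa5a probes at −0.13 and 0.11, and both Zp3 probes at 0.02. Bmp15 was at 0.23, from −0.59, 0.65 and 0.61. Gdf9, an oocyte growth factor, was at 0.97 (limma adjusted p = 0.240), with every HP pool above every control pool (12.7% of all tested probes). Khdc3, a maternal protein gene, was at −1.30 (limma adjusted p = 0.179), with every HP pool below every control pool (12.9%). Nlrp5, Ooep, Padi6, Zbed3 and Zp2 were at background in every pool, and Pou5f1 in all but 1 control pool. The part of these differences in the members' values was not tested. None of the 10 cumulus and granulosa genes had a tested probe, and their summed normalized signal was 1066 to 1089 in HP pools and 1080 to 1096 in control pools. Of their probes 92.9% were well above background in no pool, against 68.3% of all probes. These sums therefore lie at the floor and do not compare carry-over between the groups. Of 6 blastocyst genes 1 was tested, Gata6, at −0.85.

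In these embryos, 6 of the 10 genes still gave signal that could be tested: Zscan4c, Tcstv3, Usp17la, Sp110, Zfp352 and Eif1a, through 7 of the 15 probes or 46.7%, against 20.8% of all probes. The list was picked for genes of early embryos. All but the Zscan4c probe, 6 of 7, were well above background in both channels on all arrays (58.1% of all tested probes). In HP pools 3 of these probes were higher on all 3 arrays (Tcstv3, Usp17la and, with its control measured in 1 pool, Zscan4c), and 2 were lower on all 3 (Sp110 and Zfp352). Over all tested probes, 22.7% were higher and 24.9% lower on all 3 arrays. No member passed limma's test after Benjamini-Hochberg adjustment at 0.05, and neither did any other probe (0% of 8581, lowest adjusted p = 0.177). At an unadjusted limma p under 0.05 there were 3 higher member probes (Zscan4c, Tcstv3 and Usp17la) and 1 lower (Sp110), where 6.99% of all tested probes were higher and 10.8% lower. Zscan4c entered the test through the HP channel, where it is high, and without it 2 higher probes are left, both measured in all 6 pools. The median log2 ratio of the 7 probes was −0.17, beside −0.02 for all tested probes, and its members lie on both sides of 0. Without replicate 1 it was 0.080. The labels do not say whether the pools were made on separate days, so the p-values cover the spread among 3 array pairs and no more.

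Zscan4c was called well above background in all 3 HP pools but in 1 control pool only. Its probe A_52_P302671 had a normalized log2 signal of 6.47, 8.07 and 7.59 in the HP pools of replicates 1, 2 and 3, and of 6.25, 6.80 and 6.32 in the control pools. In each replicate the HP pool was above the control pool of its own array, but HP replicate 1 lay below control replicate 2, so the groups overlapped. HP replicate 1 also lay within 6.13 to 6.57, the range of the untested member probes, so replicate 1 was dim on both sides. The net signal before normalization (mean spot signal minus local background, in scanner units) was 20.1, 182 and 121 in HP pools, where the median of all non-control spots was 10 to 11. In control pools it was 24.6, 115 and 25.3, where that median was 24.1, 27.1 and 28.3, so control replicates 1 and 3 were close to it. The scanner software called it well above background in all 3 HP pools and in 1 control pool (replicate 2). The probe thus passed the filter through the HP channel, and a probe that passes this way is likely to be higher there. Replicate 2, the array on which both pools were measured, gave a log2 ratio of 1.27. The arrays of replicates 1 and 3, with the control pool at background, gave 0.22 and 1.27. The mean of all 3 was 0.92 ± 0.27 (moderated SE, limma adjusted p = 0.234), which is not read as a fold here, nor ranked against the other members. With replicates 2 and 3 counted as 1 the mean was 0.74 (limma adjusted p = 0.495).

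This ratio is a compressed one, since an offset of 50 is added to both channels before the logarithm. With no offset the mean was 1.49. The log ratios of the scanner software gave 3.12, from 1.62, 2.07 and 5.67 on the 3 arrays. The highest of these, replicate 3, had a control signal that was not well above background. The second probe, A_52_P363843, was not well above background in any pool, with signals of 6.27, 6.31 and 6.27 in HP pools and 6.22, 6.34 and 6.26 in control pools. The Zscan4c value therefore rests on a single probe, whose listed accessions name the Zscan4c transcript. Whether transcripts of Zscan4d or of other Zscan4 copies also bind this probe was not tested, since only array probes were compared in sequence.

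**Figure D1:**
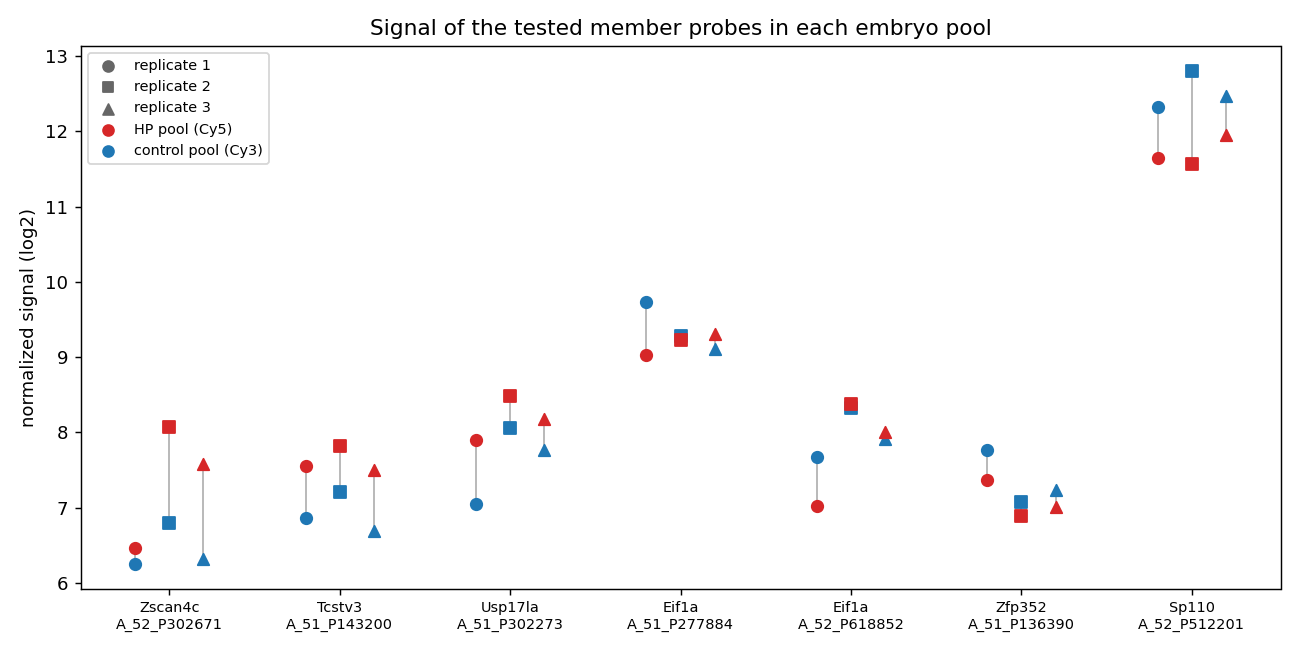
Normalized signal (log2) of the 7 tested probes in each of the 6 embryo pools. Red points are HP pools and blue points control pools, the shape gives the replicate, and a grey line joins the pools of an array. Tcstv3 is the probe with all HP pools above all control pools and Sp110 the one with all HP pools below; heights of different probes are not comparable.

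Tcstv3 was the most even of the higher members. Its probe A_51_P143200 had a normalized log2 signal of 7.56, 7.82 and 7.50 in HP pools and of 6.86, 7.21 and 6.69 in control pools. Every HP pool lay above every control pool, as for 12.7% of all tested probes, and all 6 pools were well above background. The log2 ratios were 0.70, 0.61 and 0.81, with a mean of 0.71 ± 0.11 (n = 3) or 1.63-fold (limma adjusted p = 0.177). That is the lowest adjusted value on the array, but Tcstv3 was not its strongest probe. Its unadjusted limma p was 0.00271, where the smallest of all tested probes was 0.000109. The mean was 0.70 with replicates 2 and 3 counted as 1 (limma adjusted p = 0.433) and 1.57 by the log ratios of the scanner software. With median centring in place of loess it was 0.20, with 0.37, −0.15 and 0.38 on the 3 arrays, while the median of all tested probes moved to −0.37. The second Tcstv3 probe, A_52_P165856, was at background in every pool, with log2 ratios of 0.07, 0.01 and 0.06.

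Tcstv1, the near copy of Tcstv3, was not tested. Its 3 probes gave signals between 6.13 and 6.57, the lowest and highest pool of any untested member probe. Only A_51_P481777 was above background at all, in the HP pool of replicate 2, where it stood at 6.57 against 6.32 in the control pool. Its log2 ratios were 0.12, 0.25 and 0.04. The array lists both Tcstv1 and Tcstv3 transcripts for this probe. The other pair, which share 40 bases, had means of 0.09 and 0.07. By the scanner software's log ratios, which have no offset, the means of A_51_P481777, A_51_P481768 and A_52_P66425 were 1.69, 1.36 and 0.70, and no array was below 0. Signals at background give no fold, so neither set of values shows that Tcstv1 differed or was alike.

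Usp17la encodes Dub1, a ubiquitin-removing enzyme first known from cytokine-stimulated blood cells. Its only probe had a normalized log2 signal of 7.89, 8.48 and 8.18 in HP pools and of 7.05, 8.06 and 7.77 in control pools. HP was higher within each array, but HP replicate 1 lay below control replicate 2, and the groups overlapped. The log2 ratios were 0.85, 0.42 and 0.41, with a mean of 0.56 ± 0.14 (n = 3) or 1.47-fold (limma adjusted p = 0.206). With replicates 2 and 3 counted as 1 it was 0.63 (limma adjusted p = 0.436) and by the scanner software's log ratios 0.98. With median centring its mean turned to −0.11, from 0.45, −0.52 and −0.26, above the median of −0.37 of all tested probes but no longer above 0. Of its relatives, Usp17lb (Dub1a) and Usp17lc (Dub2) had 1 probe each, not well above background in any pool.

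Eif1a encodes eIF1A, which helps the small ribosomal subunit scan for the start codon. The probe A_51_P277884, on chromosome 18 at 46986353 to 46986412, had a normalized log2 signal of 9.02, 9.23 and 9.31 in HP pools and of 9.73, 9.29 and 9.11 in control pools. The groups overlapped and the arrays differed in sign, with log2 ratios of −0.71, −0.06 and 0.19 and a mean of −0.19 ± 0.21 (n = 3, limma adjusted p = 0.635). The other chromosome 18 probe, A_52_P331911, was above background in the control pool of replicate 2 alone and was not tested.

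The Eif1a-like probe A_52_P618852 on chromosome 12 also differed in sign between arrays. Its normalized log2 signal was 7.02, 8.38 and 8.01 in HP pools and 7.68, 8.32 and 7.91 in control pools. The log2 ratios were −0.66, 0.06 and 0.10, with a mean of −0.17 ± 0.20 (n = 3, limma adjusted p = 0.664). Without replicate 1 both Eif1a means turned positive, to 0.066 and 0.080. With replicates 2 and 3 counted as 1 they were −0.32 and −0.29 (limma adjusted p = 0.647 and 0.664). The overlapping LOC544881 probe gave −0.42, 0.40 and 0.36, also negative on replicate 1 only.

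Arg2, the mitochondrial arginase that turns arginine into ornithine and urea, was at background. Its probe was not well above background in any pool, with signals of 6.28, 6.30 and 6.28 in HP pools and 6.25, 6.24 and 6.27 in control pools. The HP values sit just above the control values, by log2 ratios of 0.03, 0.05 and 0.01. A difference of that size in probes at background is not a measured change.

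**Figure D2:**
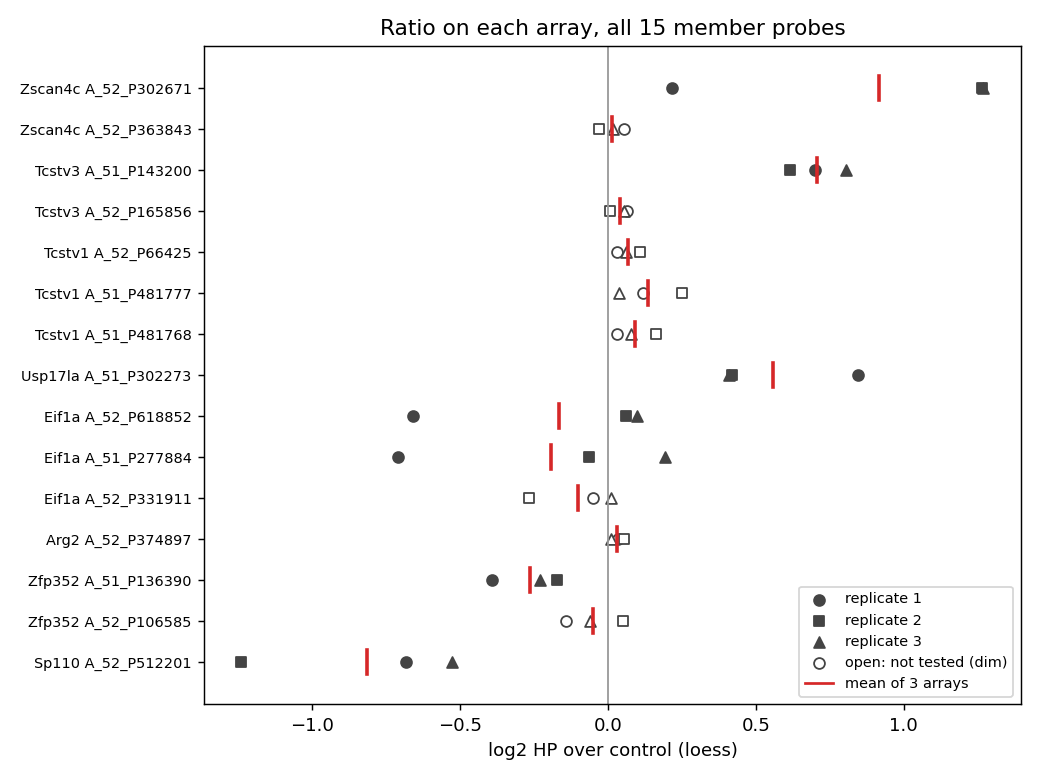
Log2 ratio of HP over control on each array for all 15 member probes, with loess and an offset of 50. Filled symbols are tested probes, open symbols probes that were too dim to test, and the red bar is the mean of 3 arrays. The untested probes stay between −0.10 and 0.14 on average, and the tested ones run from −0.82 (Sp110) to 0.92 (Zscan4c, above background in 1 control pool).

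Sp110 and Zfp352 stood on the other side. Sp110 encodes a nuclear body protein known from innate immunity. Its probe, named 5830484A20Rik on the array, lies on an unplaced part of chromosome 8 (8_random, 4195097 to 4195156), while RefSeq places the gene on another chromosome. The gene region is multicopy in mice, so which copy gives the signal was not tested. The normalized log2 signal was 11.64, 11.57 and 11.95 in HP pools and 12.33, 12.81 and 12.47 in control pools. Every HP pool lay below every control pool, as for 12.9% of all tested probes. The log2 ratios were −0.68, −1.24 and −0.53, with a mean of −0.82 ± 0.18 (n = 3), or 1.76-fold lower in HP (limma adjusted p = 0.193). It was −0.78 with replicates 2 and 3 counted as 1 (limma adjusted p = 0.433). By the scanner software's log ratios the arrays gave −0.87, −1.44 and −0.70.

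Zfp352, a zinc finger gene of the two-cell embryo, was lower by less. Its probe A_51_P136390 had a normalized log2 signal of 7.37, 6.90 and 7.01 in HP pools and of 7.76, 7.07 and 7.24 in control pools. HP was lower within each array, but HP replicate 1 was above control replicates 2 and 3, so the groups overlapped. The log2 ratios were −0.39, −0.17 and −0.23, with a mean of −0.26 ± 0.11 (n = 3) or 1.20-fold lower in HP (limma adjusted p = 0.316). The mean was −0.30 with replicates 2 and 3 counted as 1 (limma adjusted p = 0.496). The second probe, A_52_P106585, was at background in every pool.

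**Figure D3:**
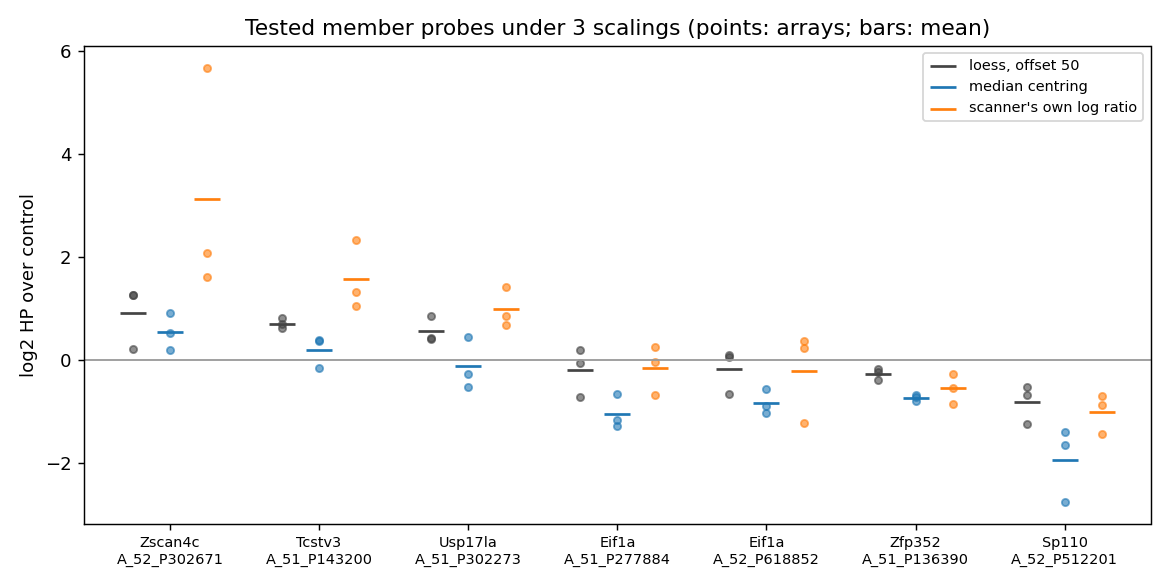
Log2 ratio of HP over control of the 7 tested probes under 3 scalings, with a point for each array and a bar for the mean. Median centring lowers every member, by the most for Sp110 (−1.93), and takes Usp17la to −0.11, while the scanner's own ratios spread the dim Zscan4c probe up to 5.67.

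Scaling moved the whole group. With median centring the median of the 7 member probes was −0.73 beside −0.37 for all tested probes, and 4 member probes passed the adjusted threshold, all lower in HP. They were Sp110 at −1.93, the Eif1a probes at −1.04 and −0.83 and Zfp352 at −0.73 (limma adjusted p from 0.0432 to 0.0464). In that setting 1144 of 8581 probes passed over the whole array, 5 higher and 1139 lower. Sp110 was the lowest of the members with either scaling. Median centring moves all ratios of an array by the same amount, so unlike loess it leaves in a trend with brightness. Between the scalings Sp110, the brightest member, went from −0.82 to −1.93 and the dim Zscan4c probe from 0.92 to 0.54. The part of brightness, or of the fixed dyes, in the calls under median centring was not tested.

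Several members also varied between replicates in the same way in both channels. For Zscan4c, Tcstv3, Usp17la and the Eif1a-like probe, the pool of replicate 2 was the highest of its kind both among HP pools and among control pools. These were 4 of the 7 tested probes, where 12.9% of all tested probes did so, a count made after the values were seen. Zfp352 had its highest pools in replicate 1 on both sides (7.37 and 7.76). Between control pools alone the signal of Usp17la ranged over 1.01 on the log2 scale, more than its mean HP to control difference of 0.56. For Tcstv3 the control pools ranged over 0.51, less than its mean difference of 0.71. Both differences are means of ratios within an array, where spread shared by the pools cancels, so these ranges are not their error. The ratios of Usp17la ran from 0.41 to 0.85. Both pools of a replicate share an array, and the part of the array in this shared pattern was not tested.

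By correlation of normalized log2 signal over the 6 pools, among 4427 probes of other named genes, Tcstv3 was most like Cep57 (r = 0.985) and Mrps30 (0.982), and Usp17la most like Eif2s1 (0.984) and Derl1 (0.984). Sp110 was most like Eif3a (0.988) and Sdhd (0.985), and Zfp352 most like Iars (0.980) and Tmem203 (0.977). For Eif1a these were Cox16 (0.991) and Pemt (0.983) at the chromosome 18 probe and Ola1 (0.988) and Fnip1 (0.984) at the chromosome 12 probe. With 6 points, between 25 and 97 probes correlated above 0.9 with each member probe, so these names are a description only.

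**Figure D4:**
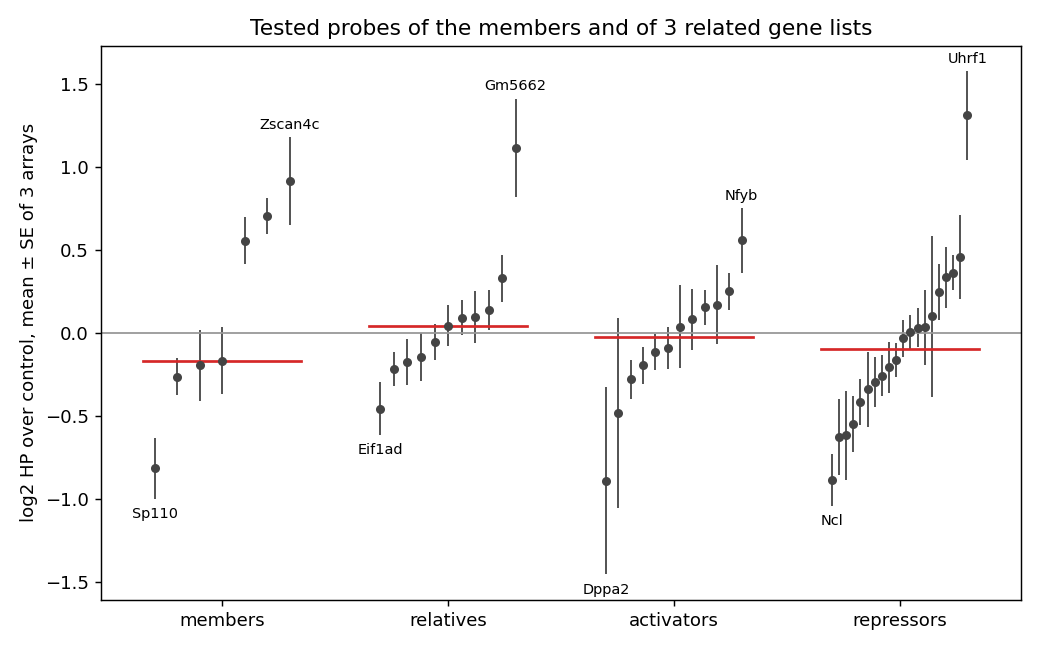
Mean log2 ratio of HP over control ± SE of 3 arrays for each tested probe of the members and of the relatives, activators and repressors of the two-cell programme. Red lines are list medians (−0.17, 0.05, −0.03 and −0.10), and the lowest and highest probe of each list is named.

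Among relatives of the members and other genes of the two-cell wave, 13 of 42 genes had a probe and 9 a tested one. Of their 11 tested probes 6 were higher and 5 lower in HP, with a median of 0.05. On all arrays 3 were higher and 2 lower (22.7% and 24.9% of all tested probes). None passed the adjusted threshold in limma. The Eif1a-like gene Gm5662 was highest at 1.12 ± 0.30, with log2 ratios of 1.25, 0.38 and 1.73 on the 3 arrays (limma adjusted p = 0.211). Its second probe was at 0.10, with signs that differed between arrays. Pramel7, of a family of leucine-rich repeat proteins expressed in early embryos, was at 0.33 (−0.74 with median centring). Eif1ad, a relative of eIF1A, was lowest at −0.46, and Pramel6 was at −0.22. Tdpoz1, a relative of Tdpoz4, had a tested probe at 0.05, which was above background in 2 HP pools and 1 control pool. With median centring 10 of the 11 probes were below 0, with a median of −0.74. In that setting the median of all tested probes also moved below 0, to −0.37.

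Genes described as activators of the programme had 12 tested probes, 6 higher and 6 lower, with a median of −0.03, and 3 and 3 on all arrays. With median centring all 12 were lower, with a median of −0.49, beside −0.37 for all tested probes in that setting. Nfyb, a subunit of the transcription factor NF-Y, was highest at 0.56 (0.09, 0.84 and 0.75), and −0.33 with median centring. Its second probe was at −0.11, above background in no HP pool and in 2 control pools, so it passed through the control channel. Dppa3, a maternal chromatin protein, was at 0.25 (−0.93 with median centring). Dppa2, which helps open two-cell genes, was lowest at −0.89, from 0.70, −1.79 and −1.57, and the nuclear receptor gene Nr5a2 stood at −0.48, from 1.13, −1.39 and −1.18. Both had the opposite sign on replicate 1.

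Genes described as repressors had 20 tested probes, 9 higher and 11 lower, with a median of −0.10. On all arrays 3 were higher (22.7% of all tested probes) and 8 lower (24.9%). Of those 8, 3 (a probe of Rif1 and 2 of Ncl) were above background in no HP pool, and a probe that passes the filter through the control channel is likely to be lower in HP. With median centring 2 of the 20 were higher and 18 lower, with a median of −0.75, beside −0.37 for all tested probes. Uhrf1, which guides maintenance of DNA methylation, was highest at 1.31, from 0.61, 1.60 and 1.73, while its second probe was at 0.03 and above background in 2 HP pools and 1 control pool. Trim28, the corepressor that silences retroviral elements, was at 0.46, from 1.13, 0.09 and 0.16. Cbx3, a heterochromatin protein, was at 0.37 (−0.68 with median centring). The nucleolar protein gene Ncl had 4 tested probes, all lower, from −0.88 to −0.30. Of these, A_51_P134007 (−0.55) and A_52_P623337 (−0.63) were above background in no HP pool and so were tested through the control channel alone. Daxx, a histone chaperone, was at −0.62, from 0.05, −0.73 and −1.17, so replicate 1 did not share the sign. The histone methyltransferase gene Ehmt2 was at −0.42, from −0.15, −0.63 and −0.46. No probe of either list passed adjustment in limma.

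Upstream sequence was searched for words that members share. RefSeq promoter windows (GRCm38.p6, 250 bases before to 50 after each start) were available for 6 of the 10 genes: Sp110 with 2 starts, Tdpoz4, Zfp352, Zscan4c, Zscan4d and Usp17la. The 250 bases upstream of Zfp352 (chr4:90218570-90218819, plus strand) and of a start of Sp110 (chr1:85603892-85604141, minus strand) hold repeats of ACACCTTTAATC, in capitals here on either strand.
Zfp352: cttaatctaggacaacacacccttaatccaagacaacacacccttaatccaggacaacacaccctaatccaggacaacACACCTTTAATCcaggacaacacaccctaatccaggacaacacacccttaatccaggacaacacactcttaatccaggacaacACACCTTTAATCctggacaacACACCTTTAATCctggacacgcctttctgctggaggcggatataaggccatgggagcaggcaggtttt
Sp110: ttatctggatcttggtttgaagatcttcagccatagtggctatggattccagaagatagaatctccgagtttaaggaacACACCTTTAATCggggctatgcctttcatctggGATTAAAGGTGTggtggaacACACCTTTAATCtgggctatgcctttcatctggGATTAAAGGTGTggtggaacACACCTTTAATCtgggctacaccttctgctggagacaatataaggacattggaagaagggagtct
The 12 letters occur 3 times in the first window, and in the second 3 times as written and 2 times on the other strand. This is the 12-letter word repeated most in the windows of a pair of members (tied with the word that starts 1 base earlier), so it was chosen on these sequences. It occurs on either strand in 51 of 32851 upstream windows, or 0.155%. The other start of Sp110 and the windows of Tdpoz4, Zscan4c, Zscan4d and Usp17la hold no copy. The Sp110 window is that of the RefSeq gene, while the probe is placed on 8_random, so the window may not be that of the copy measured. Of the 50 genes with such a window 7 had a tested probe. Besides Sp110 and Zfp352 these were Gsdmc3 at 0.94, Tdpoz1 at 0.05, Pemt at −0.07, Sgk1 at −0.09 and Pramel4 at −0.37, and so lie on both sides of 0. TATAAA was present upstream of Zscan4c and of Zscan4d (12.4% of all windows, either strand). The windows of these 2 copies were identical at 281 of 289 aligned bases or 97.2%.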

How the data were processed

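Two-colour Agilent arrays of HP pools (Cy5) and control pools (Cy3) were analysed. Per the labels, 240 pg of total RNA per pool was amplified in successive rounds before dye coupling, which adds error that 3 arrays cannot separate. Per the file headers, images were read with Agilent Feature Extraction 9.5.1.1, and the deposited mean signals and local backgrounds are intensity values with nothing subtracted. The deposited log10 ratio was computed from the scanner software's processed signals, and the authors' table of the series repeats it (largest difference 5e-10).

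Signals were background-corrected with normexp (offset 50) and loess-normalized with limma 3.58.1 in R 4.3.3, control spots at weight 0. Outlier spots were left out (208, 172 and 325 on replicates 1, 2 and 3) and spots of a probe averaged. Pool signals were further quantile-normalized between arrays on mean intensity. A limma intercept model with empirical Bayes moderation (prior df 2.08, residual df 2) was fitted to all 8581 tested probes, with two-sided p-values and Benjamini-Hochberg adjustment, and the steps were tested on simulated data. A sign-flip permutation over 3 arrays cannot go below 0.25. Names were taken from RefSeq by accession (22951 probes), symbol (6659) or synonym (3109), and kept as on the array for 8455. The text names every member probe, and from each related list the 2 highest and 2 lowest genes and those at an unadjusted p under 0.05. The members and lists were chosen with earlier results of these data known. Alternatives were no background subtraction, no offset, the scanner's own log ratio, the series table, median centring, scale normalization, both filters, separate channels, each replicate left out, and replicates 2 and 3 counted as 1.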

Additional observations from a re-analysis of the deposited data

How the results depend on the processing

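Of 13 alternatives, among which the series table only repeats the scanner's own log ratio, median centring in place of loess changed the calls. With it 1144 probes passed an adjusted limma p of 0.05 (5 higher, 1139 lower) in place of 0, and 4 member probes in place of 0. Unlike loess, median centring leaves in a trend of the ratio with brightness. The members' median log2 ratio became −0.73 in place of −0.17, Usp17la turned to −0.11, and the Eif1a probes, Sp110 and Zfp352 were the member probes that passed. Leaving out each replicate in turn gave 0 to 0 probes and 0 to 0 member probes past the threshold and a member median from −0.28 to 0.080. In the same settings the Eif1a probes ranged from −0.39 to 0.066 (A_51_P277884) and from −0.30 to 0.080 (A_52_P618852), both positive without replicate 1. Tcstv3, Sp110 and Zfp352 kept their sign in every alternative, with log2 ratios from 0.20 to 1.57, −1.93 to −0.60 and −0.73 to −0.20. Zscan4c ran from 0.54 to 3.12 and has no value under the filter on both channels. It was tested through the HP channel, where it is high, so its kept sign is not read as support. Pairing lies in the ratio of each array: with separate channels and no replicate block 0 probes passed, and the member median was −0.17. Zscan4c in 2 control pools, all probes of Arg2, and Tcstv1 in all but 1 pool of 1 probe were not well above background, which leaves their ratios without a measured level on one or both sides.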
